A study of Mus musculus with 18 samples.

Results

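The genes described here encode enzymes of the mevalonate pathway and regulators of cellular sterol level in the mouse. They are Acat2, Hmgcs1, Mvk, Idi1 and Fdps among the enzymes, Srebf2 and Insig1 among the regulators, and the sterol carrier Stard4. They were measured in cells and tissues of Cav1 knockout (KO) and wild-type (WT) mice on 18 Illumina Mouse-6 V1 bead arrays. There were 3 arrays each of KO and WT mouse embryonic fibroblasts (MEFs, a primary line harvested 24 hours after plating), of KO and WT liver taken 24 hours after food was withdrawn, and of KO and WT adipose tissue taken 11 hours after food was withdrawn. The mice had free access to food and water until then. The strain, sex and age of the mice, the allele that was deleted, and the origin of the replicate arrays (other animals, other cultures, or 1 MEF line per genotype) are not given in the sources used here. P-values therefore refer to the spread between these arrays, and that spread may be technical. A gene's probes were found by reading the number inside the probe name as a mouse NCBI gene ID. This found 10 probes for 7 of the 8 genes, among 8109 genes named in this way. Acat2, Hmgcs1, Idi1, Fdps and Stard4 had 1 probe each, Srebf2 had 2 and Insig1 had 3. Mvk had none, and 1 probe that carries the name of a RIKEN clone listed among the synonyms of Mvk is given beside the others and left out of every count of the 7.

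The mevalonate pathway builds isoprenoid units from acetyl-CoA, and cholesterol, ubiquinone, dolichol and the prenyl anchors of many proteins are made from them. When the sterol content of the endoplasmic reticulum falls, the transcription factor SREBP-2, the product of Srebf2, is carried to the Golgi, cleaved, and enters the nucleus, where it activates most genes of the pathway. INSIG-1 holds the precursor in the endoplasmic reticulum when sterols are plentiful, and the Insig1 gene is itself an SREBP target. Caveolin-1, the product of Cav1, binds cholesterol and is needed to form caveolae, small pits in the cell surface of which adipocytes have many. Liver is a main site of cholesterol synthesis, and fasting lowers the synthesis of cholesterol there.

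The Cav1 probe went with the labels. Its raw intensity was 789 to 1690 on KO and 9766 to 10821 on WT MEF arrays, 1940 to 3167 on KO and 25664 to 50304 on WT adipose arrays, and 110 to 134 on KO and 158 to 186 on WT liver arrays, where it was dim. Where this probe lies relative to the deletion is not given. The arrays detected 13524 to 14733 probes in MEFs, 12076 to 13131 in liver and 14877 to 16973 in adipose tissue, out of 45915 without control probes. Of the markers that could be named, all 4 of hepatocytes were highest in WT liver, both of adipocytes in WT adipose tissue and all 5 of fibroblasts in WT MEFs, on the log2 scale of the 18 arrays normalized together. In raw intensity, which was higher on the adipose arrays as a whole, the hepatocyte marker Pck1 averaged 12572 in WT adipose tissue and 6157 in WT liver, and the fibroblast marker Col3a1 averaged 3687 in WT adipose tissue and 2091 in WT MEFs. Postn and Fbln1, 2 other fibroblast markers, were also brighter in raw intensity in WT adipose tissue than in WT MEFs. Albumin and adiponectin were not among the markers with a named probe. Arrays of adipose tissue are named by the numbers of their labels, which are 2, 3 and 5 for KO and 1, 2 and 4 for WT. Each member value averaged 25 to 67 beads, and the standard error over the beads was 0.355% to 1.79% of the value.

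The promoters of Acat2, Hmgcs1 and Insig1 are shown. Among the members with a promoter at hand, these 3 held an exact match to CACNCCAC. These are core letters of a sterol regulatory element, the site that SREBP proteins bind. Each window runs from 250 bases before to 50 bases after the start of the gene, is taken from RefSeq on GRCm38.p6, and is written 5′ to 3′ on the gene's strand. The window of Acat2 is chr17:12960676-12960975 on the minus strand, that of Hmgcs1 is chr13:119690101-119690400 on the plus strand and that of Insig1 is chr5:28071162-28071461 on the plus strand. Capitals mark matches to CACNCCAC, read on the other strand as GTGGNGTG, and to CCAAT, the box bound by the factor NF-Y, read on the other strand as ATTGG.
Acat2: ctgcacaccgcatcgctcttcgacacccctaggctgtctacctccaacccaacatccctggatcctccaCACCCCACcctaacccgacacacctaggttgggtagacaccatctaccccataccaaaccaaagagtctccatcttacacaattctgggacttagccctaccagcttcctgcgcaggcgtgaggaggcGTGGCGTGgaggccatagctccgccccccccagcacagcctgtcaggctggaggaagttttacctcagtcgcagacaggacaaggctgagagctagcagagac
Hmgcs1: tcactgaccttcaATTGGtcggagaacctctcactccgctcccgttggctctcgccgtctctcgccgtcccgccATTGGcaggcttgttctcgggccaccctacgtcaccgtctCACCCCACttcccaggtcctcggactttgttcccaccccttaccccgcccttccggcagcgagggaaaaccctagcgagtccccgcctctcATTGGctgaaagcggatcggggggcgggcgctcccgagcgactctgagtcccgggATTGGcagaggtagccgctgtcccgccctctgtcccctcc
Insig1: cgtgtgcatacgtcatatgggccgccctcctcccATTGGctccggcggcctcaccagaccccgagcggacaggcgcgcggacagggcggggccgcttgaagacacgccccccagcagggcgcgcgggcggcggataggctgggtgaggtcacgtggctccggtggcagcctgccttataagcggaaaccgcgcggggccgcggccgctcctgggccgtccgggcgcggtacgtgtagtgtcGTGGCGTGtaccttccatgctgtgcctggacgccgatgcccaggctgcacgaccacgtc

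Acat2 held 2 matches to CACNCCAC and none to CCAAT. Hmgcs1 held 1 match to CACNCCAC and 4 to CCAAT, and Insig1 held 1 of each. The windows of Mvk, Idi1 and Srebf2 held no match to CACNCCAC, with 5 matches to CCAAT in Mvk, 2 in Idi1 and 1 in Srebf2. No match overlapped another. Thus 3 of 6 members held CACNCCAC, which was found in 6.24% of all 32851 promoters of the same length, and 5 of 6 held CCAAT, found in 37.4%. A match is a description of the letters and not of binding. Only exact matches were sought, so a window without CACNCCAC is not shown to lack a sterol regulatory element.

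**Figure D1:**
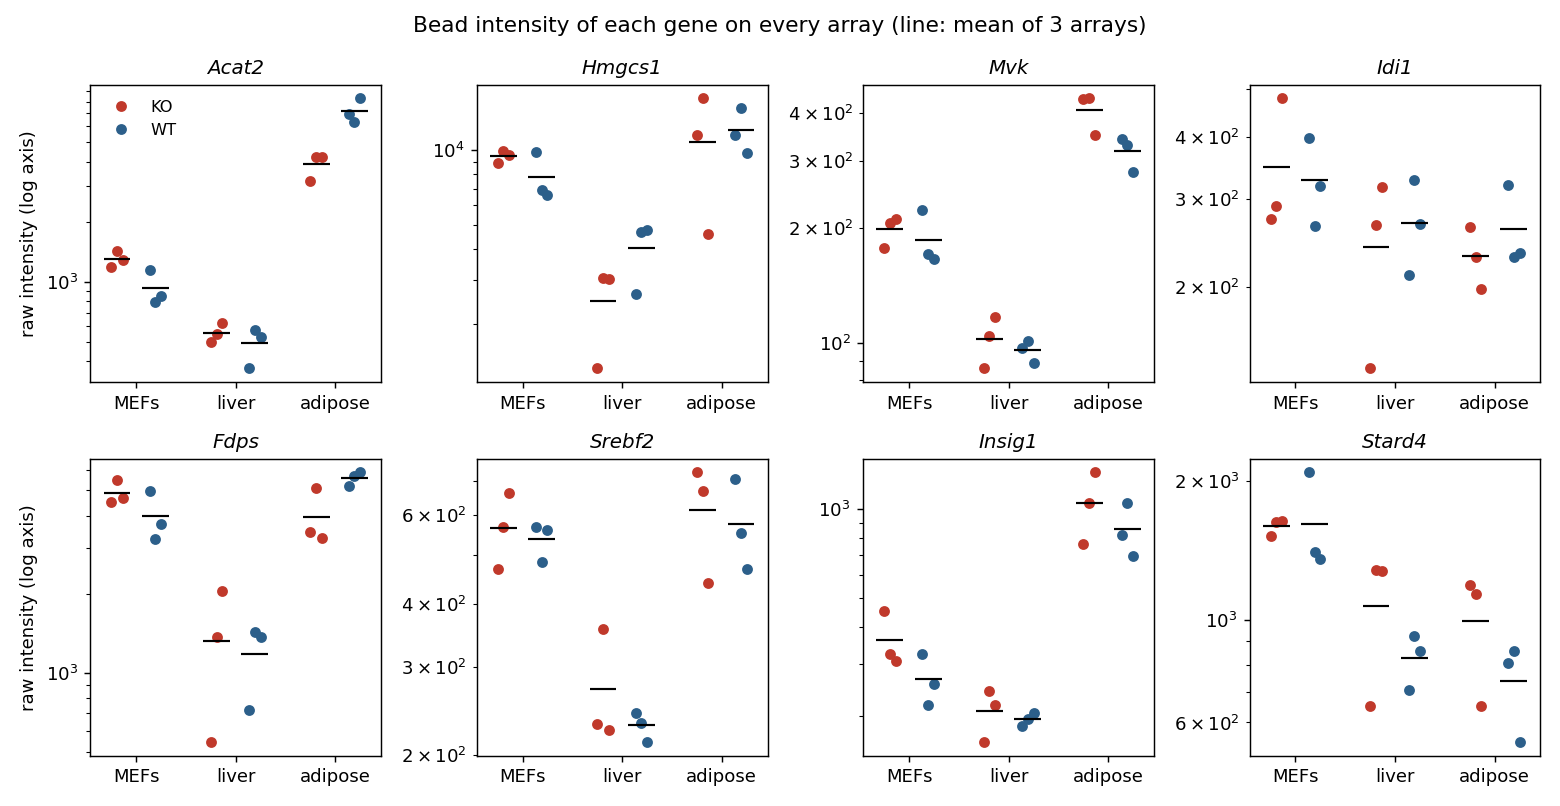
Raw bead intensity (log axis, with its own range for each gene) of the brightest probe of each gene on every array, KO left of WT in MEFs, liver and adipose tissue, with the mean of 3 arrays as a line. Acat2 is apart between the genotypes in MEFs, where the KO arrays read 1182 to 1432 and the WT arrays 786 to 1144. It is apart in adipose tissue too, where the KO arrays read 3186 to 4241, as are Fdps and Mvk in this raw intensity. Mvk was not detected in liver.

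No member passed the test between KO and WT in any tissue. Probes were called at a Benjamini-Hochberg adjusted p under 0.05 over all probes tested, which called 0.448% of 14048 probes in MEFs (63 probes, or 13 with the replicate number as a block, under which Acat2 had an adjusted p of 0.245 and no member passed), 4.75% of 12573 in liver and 0.407% of 15967 in adipose tissue. The calls were 0.135% higher and 0.313% lower in MEFs, 2% higher and 2.75% lower in liver, and 0.225% higher and 0.182% lower in adipose tissue. Groups that did not overlap were found for 1 of the 7 members in MEFs (Acat2, KO above WT), for none in liver and for 1 in adipose tissue (Acat2, KO below WT). Among all probes, every KO array was above every WT array for 8.56% in MEFs and below for 8.33%; these shares were 13.1% and 14.8% in liver, and 8.81% and 10.8% in adipose tissue. At an unadjusted p under 0.05, 1 of the 7 members passed in MEFs (Acat2), none in liver and 1 in adipose tissue (Acat2), against 10.7%, 22.2% and 13.2% of all probes tested. In MEFs the difference of KO minus WT was above 0 for all 7 members, with a median of 0.37 on the log2 scale, against a median of -0.00064 over all probes, of which 49.6% were above 0. In liver 3 of the 7 were above 0 with a median of -0.0017 (all probes -0.005), and in adipose tissue 2 of the 7 were above 0 with a median of -0.05 (all probes -0.0035). The adipose median was -0.33 with a background set from the median and median absolute deviation of the negative controls, and -0.34 on the authors' normalized values. Values of several members moved together from array to array, as given after the single genes, so the 7 differences of a tissue are not 7 independent observations. In MEFs the WT arrays lay at positions A to C and the KO arrays at D to F of 1 slide, so position and genotype cannot be told apart there. In liver the KO arrays lay at D to F of 1 slide and WT 2 and WT 3 at B and C of it. Liver WT 1 lay at F of another slide. Within the shared liver slide, position and genotype cannot be told apart either. The 5 fibroblast markers measured totalled 6361 to 8560 raw units on KO and 9571 to 12270 on WT MEF arrays, with 1 called lower. Most of this gap was Col1a2, which averaged 531 on KO and 2982 on WT MEF arrays. Col3a1 averaged 1603 on KO and 2091 on WT, and Col1a1 4743 and 4758. Fbln1 averaged 563 on KO and 547 on WT, and Postn 131 and 122. The 2 red blood cell markers totalled 4309.8 to 16084 on KO and 20241 to 34416 on WT liver arrays, with none called. The part of these markers in the members' values was not tested.

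**Figure D2:**
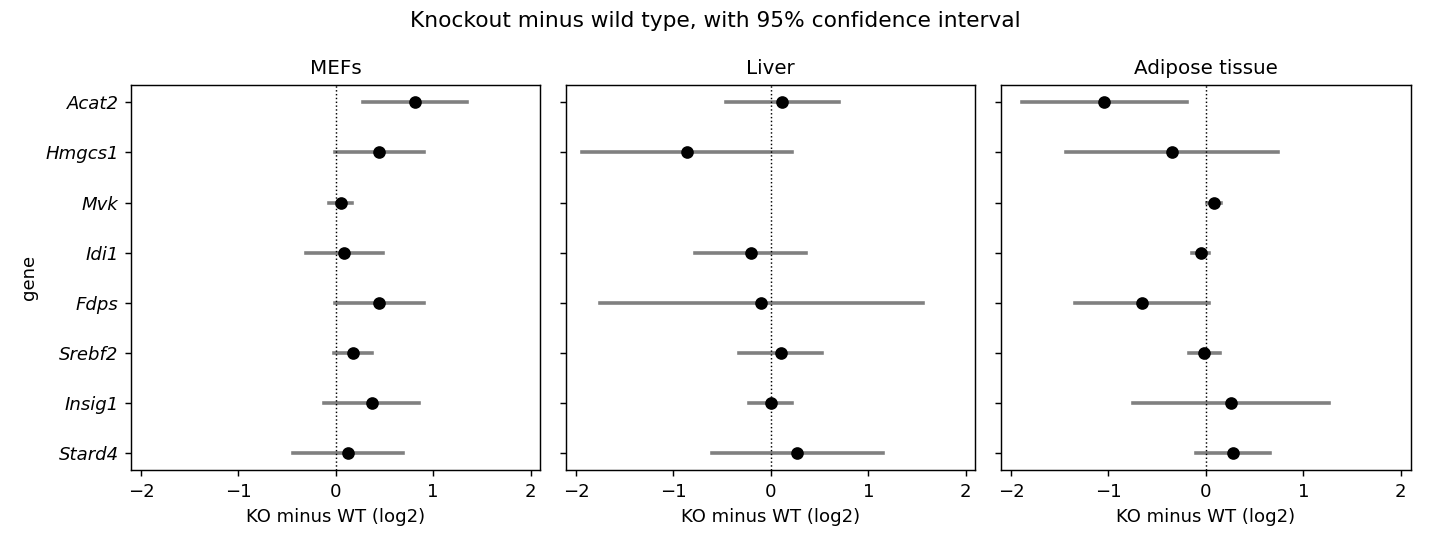
Difference of KO minus WT (log2, point) with its 95% confidence interval (bar) for each gene in MEFs, liver and adipose tissue. Acat2 is the gene whose interval leaves out 0 in MEFs, from 0.28 to 1.34, and it and Mvk are the genes whose intervals do so in adipose tissue, from -1.89 to -0.20 for Acat2; no adjusted p is under 0.05.

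Acat2 encodes the cytosolic acetyl-CoA acetyltransferase, which joins acetyl-CoA units at the entry to the pathway. In adipose tissue its raw intensity was 3186, 4217 and 4241 on the KO arrays, against 8291, 6954 and 6321 on the WT arrays. Every KO array was below every WT array. The difference was -1.04 ± 0.33 on the log2 scale (SE, n = 3 each), a KO level of 0.485 times the WT level, and it did not pass (adjusted p = 0.3). These are bulk samples, in which fewer cells of a type and less RNA per cell cannot be told apart. In MEFs the order of the genotypes was the other way. The raw intensity there was 1182, 1432 and 1277 on the KO arrays and 1144, 786 and 850 on the WT arrays. Every KO array was above every WT array, by little for KO 1 over WT 1 in raw intensity, with a difference of 0.81 ± 0.21 and an adjusted p of 0.254. In liver the values overlapped, with 499, 547 and 619 on the KO arrays and 529, 367 and 575 on the WT arrays (difference 0.12 ± 0.23, adjusted p = 0.835, and 0.38 with median centring, adjusted p = 0.41). Acat2 lies beside Acat3, a closely related gene, and whether the probe tells the transcripts apart was not tested.

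The difference between the effects was itself tested in 1 fit over all 18 arrays. Time without food goes with tissue in these contrasts, so the 2 cannot be told apart. The knockout effect on Acat2 in adipose tissue minus that in MEFs was -1.88 ± 0.41 (SE, log2, adjusted p = 0.0297), which passed, as did 2.45% of 19948 probes. The 6 other members did not pass in this contrast, with adjusted p-values from 0.525 to 0.985. The call on Acat2 is near the threshold. It was lost without the filter on dim probes (adjusted p = 0.0611) and when any 1 of 7 arrays was left out, MEF WT 2 or 3, MEF KO 1 or 2, adipose KO 2 or 3, or adipose WT 1 (adjusted p 0.0527 to 0.0768). With the replicate number as a block for the MEF arrays in the fit over 18 arrays, an alternative chosen after seeing the data, the adjusted p was 0.0373. The difference itself stayed between -2.13 and -1.54 in every alternative run. The effect on Acat2 in adipose tissue minus that in liver was -1.20 ± 0.41 (adjusted p = 0.145) and that in liver minus that in MEFs was -0.68 ± 0.41 (adjusted p = 0.477), neither of which passed. No member passed in these contrasts, which called 4.24% and 3.73% of probes. Macrophage markers were summed beside the adipose values, and the 4 measured (Cd68, Csf1r, Lyz2 and Itgam) totalled 4435 to 14418 raw units on KO and 2511 to 9008 on WT adipose arrays. The 2 adipocyte markers, Fabp4 and Lpl, totalled 58163 to 62351 on KO and 56004 to 63757 on WT arrays. The 5 fibroblast markers measured totalled 7322 to 33960 on KO and 4887 to 14576 on WT adipose arrays. The 4 hepatocyte markers totalled 5167 to 9689 on KO and 8375 to 21749 on WT adipose arrays. Nearly all of the hepatocyte total was Pck1, which averaged 6887 on KO and 12572 on WT. The others were dim and slightly higher on KO. Apoa1 averaged 478 on KO and 436 on WT, Serpina1a 226.5 and 176, and Cps1 185 and 181. Actn3, the 1 skeletal muscle marker measured, read 189 to 976 on KO and 168 to 234 on WT arrays. No marker of these lists was called, and their part in the Acat2 values was not tested.

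Hmgcs1 encodes the cytosolic HMG-CoA synthase, which joins acetyl-CoA and acetoacetyl-CoA early in the pathway. In liver its raw intensity was 1321, 3044 and 3029.9 on the KO arrays and 4758, 2638 and 4681 on the WT arrays. The lowest array of each genotype stood well below the other two, and the groups overlapped through WT 2. The difference of -0.86 ± 0.43 (95% interval -1.94 to 0.22) was the largest of any member in liver and did not pass (adjusted p = 0.322). Without liver KO 1 it was -0.43 (adjusted p = 0.426). In MEFs the values were 8901, 9895 and 9598 on the KO arrays and 9847, 6909 and 6578 on the WT arrays, which overlapped through WT 1 (difference 0.45 ± 0.18, adjusted p = 0.471). In adipose tissue they were 11556, 16166 and 4579 on the KO arrays and 9729, 11545 and 14824 on the WT arrays. Adipose KO 5 was the lowest of the 6 and KO 3 the highest, and the difference of -0.35 ± 0.43 (adjusted p = 0.804) changed sign to 0.07 without KO 5.

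Mvk encodes mevalonate kinase, which phosphorylates mevalonate. Its clone-named probe was not detected on any liver array and was dim elsewhere. In adipose tissue it read 434, 436 and 349 on the KO arrays and 280.2, 341 and 330 on the WT arrays. Every KO array was above every WT array. The difference was 0.08 ± 0.03 (adjusted p = 0.307), and 0.46 (adjusted p = 0.264) with the background set from the median and median absolute deviation. The fitted spread of the background was wider than that median absolute deviation, so dim probes differ less in the values reported here. In MEFs the probe read 178, 206 and 212 on the KO arrays and 223, 171 and 166 on the WT arrays (difference 0.05 ± 0.05, adjusted p = 0.811). The MEF difference was 0.32 with that background and 0.50 on the authors' values, and the adipose difference was 0.58 on the authors' values, none of them called.

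Idi1 encodes the isomerase that turns isopentenyl diphosphate into dimethylallyl diphosphate. Its probe was dim in all 3 tissues, and adipose KO 5 was not detected. In MEFs it read 274, 291 and 478 on the KO arrays and 399, 265 and 319 on the WT arrays, and in adipose tissue 264, 229.6 and 198 on the KO arrays and 234, 321 and 229.5 on the WT arrays. In liver it read 137, 267 and 318 on the KO arrays and 268, 212 and 328 on the WT arrays, with KO 1 lowest. The groups overlapped in every tissue, and the difference was 0.09 ± 0.16 in MEFs (adjusted p = 0.914), -0.21 ± 0.23 in liver (adjusted p = 0.679) and -0.05 ± 0.03 in adipose tissue (adjusted p = 0.601). With the background set from the median and median absolute deviation the adipose difference was -0.69 (adjusted p = 0.4) and the liver difference -0.61 (adjusted p = 0.53), and on the authors' values they were -0.97 and -1.01, neither of them called.

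Fdps encodes farnesyl diphosphate synthase, whose product is the branch point towards sterols and prenylated proteins. In adipose tissue it read 3476, 5121 and 3288 on the KO arrays and 5869, 5201 and 5688 on the WT arrays. In raw intensity every KO array was below every WT array, though KO 3 by little, and after normalization the groups overlapped. The difference was -0.65 ± 0.27 (adjusted p = 0.398). In MEFs it read 4506, 5485 and 4692 on the KO arrays and 4973, 3261 and 3717 on the WT arrays, again overlapping through WT 1 (difference 0.45 ± 0.18, adjusted p = 0.473). The spread was widest in liver, with 544, 1371 and 2058 on the KO arrays and 1376, 722 and 1436 on the WT arrays. KO 1 was the lowest and KO 3 the highest of the 6. The liver difference of -0.10 ± 0.67 (95% interval -1.75 to 1.56, adjusted p = 0.958) was 0.59 without KO 1 and -0.62 without KO 3, so 1 array decides its sign.

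Srebf2 encodes SREBP-2. Its brighter probe read 469, 567 and 663 on the KO and 568, 485 and 560.2 on the WT arrays in MEFs. In liver it read 231, 356 and 225 on the KO and 212, 243 and 232 on the WT arrays, and in adipose tissue 730, 669.6 and 439.9 on the KO and 468, 707 and 553 on the WT arrays. The groups overlapped in all 3 tissues. The differences were 0.18 ± 0.08, 0.10 ± 0.17 and -0.02 ± 0.06 in MEFs, liver and adipose tissue, none of which passed (adjusted p = 0.506, 0.811 and 0.951). The dimmer probe gave 0.11 ± 0.12 in MEFs and 0.01 ± 0.04 in adipose tissue and was not tested in liver, where 1 of 6 arrays detected it.

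Insig1 encodes INSIG-1, the sterol-dependent retention factor. In adipose tissue its brightest probe read 762, 1047 and 1336 on the KO arrays and 694, 818 and 1052 on the WT arrays. KO 5 was the highest of the 6, and without it the difference of 0.26 ± 0.40 (adjusted p = 0.852) was -0.15. It was 0.56 without KO 2 and 0.53 with slide section as a block. In MEFs the values were 452, 325 and 307 on the KO arrays and 323, 218 and 256 on the WT arrays (difference 0.37 ± 0.20, adjusted p = 0.597). The MEF difference was 0.75 with the background set from the median and median absolute deviation (adjusted p = 0.35), 0.89 on the authors' values (adjusted p = 0.445) and 0.16 without KO 1. In liver they were 163, 244 and 218 on the KO arrays and 204, 185 and 195 on the WT arrays (difference -0.0017 ± 0.09, adjusted p = 0.995). The groups overlapped in each tissue after normalization. The second probe gave 0.17 ± 0.11, -0.07 ± 0.04 and 0.0027 ± 0.22 in MEFs, liver and adipose tissue, and the third was detected on 1 of 18 arrays and was not tested. With that background the second probe gave 0.56 in MEFs and -0.47 in liver, and on the authors' values 0.72 and -0.82, none of them called.

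Stard4 encodes a cytosolic carrier that moves cholesterol between membranes and is itself a sterol-regulated gene. In liver it read 653, 1279 and 1277 on the KO arrays and 855, 704 and 925 on the WT arrays. KO 2 and KO 3 were above all WT arrays and KO 1 was below them. The difference was 0.27 ± 0.35 (adjusted p = 0.735), and without KO 1 it was 0.68 and passed (adjusted p = 0.0364), in a fit that called 1054 probes against 597 with all arrays. In adipose tissue it read 1189.6, 1134 and 653 on the KO arrays and 544, 808 and 857 on the WT arrays, overlapping through KO 5 (difference 0.28 ± 0.15, adjusted p = 0.509). In MEFs it read 1516, 1628 and 1632 on the KO arrays and 2085, 1399 and 1356 on the WT arrays (difference 0.12 ± 0.23, adjusted p = 0.916).

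Arrays of the same group differed in the members together. Among the WT MEF arrays, WT 1 was the highest for all 8 genes, by a median of 0.28 on the log2 scale above the group mean. Among the KO liver arrays, KO 1 was the lowest for 6 of the 7 genes tested (all but Srebf2), with a median deviation of -0.43 and one of -1.37 for Fdps, and KO 3 was the highest for 5. Among the WT liver arrays, WT 2 was the lowest for 5 (Acat2, Hmgcs1, Idi1, Fdps and Stard4). The adipose arrays showed less of a common pattern. There KO 5 was the lowest of the KO arrays for Hmgcs1, Mvk, Idi1, Srebf2 and Stard4 and the highest for Acat2 and Insig1. Leaving out MEF WT 1 gave larger differences of KO minus WT in MEFs for all 8 genes, such as 1.02 for Acat2 (adjusted p = 0.0892) and 0.64 for Hmgcs1 (adjusted p = 0.125), none of which passed.

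**Figure D3:**
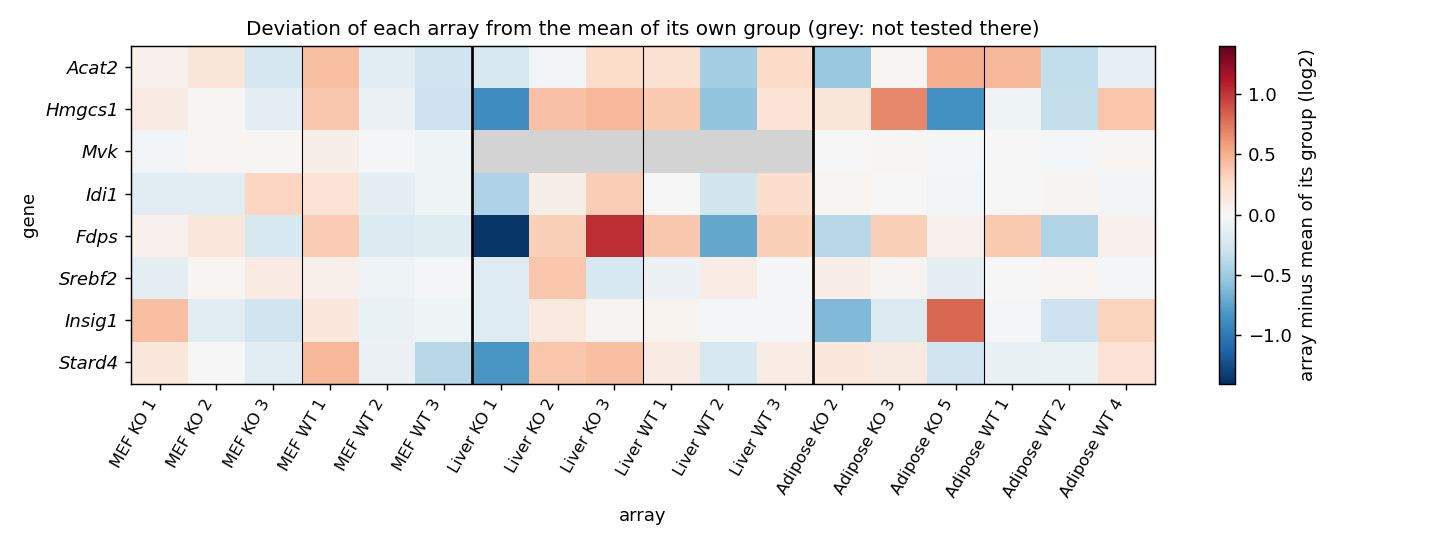
Deviation of each array from the mean of its own group (log2, colour) for each gene (rows) on the 18 arrays (columns, KO left of WT in each tissue), with grey where Mvk was not tested. Liver KO 1 is low for most genes, down to -1.37 for Fdps, and MEF WT 1 is above its group for all 8.

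The genes most like the members over the 18 arrays were sought among 3018 other named genes tested in all 3 tissues. Each value was centred on the mean of its tissue and set against the mean of the 7 members centred in the same way. The genotype difference within a tissue stays in these values, and the arrays of a tissue share a normalization and, but for liver WT 1, a slide. Nsdhl and Cyp51, both enzymes of cholesterol synthesis after squalene, were the most alike, with r = 0.887 (rho = 0.853) for Nsdhl and r = 0.861 (rho = 0.73) for Cyp51 over 18 arrays. Ap1g1, Ube2g2 and Dtx3l followed with r = 0.787, 0.763 and 0.76. The values of Ap1g1 and Ube2g2 spanned little. Ap1g1 stayed between -0.07 and 0.06 of its tissue mean, whereas Cyp51 ranged from -1.57 to 1.16 and Nsdhl from -1.1 to 1.2. Among the members themselves, Fdps was the most like the mean of the other 6 (r = 0.895), and Insig1 and Srebf2 were the least (r = 0.199 and 0.154). Idi1, Hmgcs1, Stard4 and Acat2 lay between, with r from 0.517 to 0.613.

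**Figure D4:**
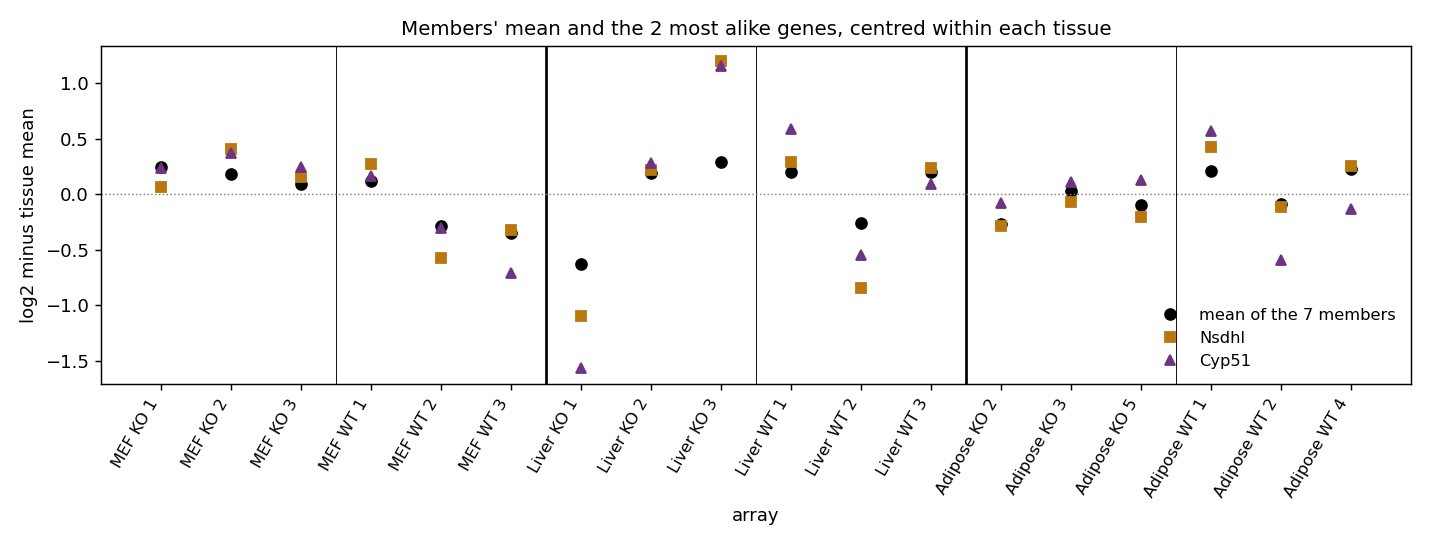
Mean of the 7 members (circles), Nsdhl (squares) and Cyp51 (triangles) on each of the 18 arrays (KO left of WT in each tissue), as log2 values minus the mean of the tissue. All 3 are lowest on liver KO 1, where the members' mean is -0.63 and Cyp51 is -1.57.

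Other genes of sterol metabolism were given by lists of 77 genes, of which 32 had a named probe. None was called in MEFs (23 tested) or in liver (24 tested), and 1 of 19 was called higher in adipose tissue. The differences were above 0 for 19 of 23 genes in MEFs (median 0.09), for 17 of 24 in liver (median 0.09) and for 6 of 19 in adipose tissue (median -0.04). All 6 enzymes from squalene to cholesterol tested in MEFs were above 0, 4 of 6 were in liver and 1 of 5 in adipose tissue, and none was called.

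Among these enzymes, Lss, the lanosterol synthase, was below WT in adipose tissue and above it in MEFs, as was Acat2, without passing the test. In adipose tissue it read 584, 857 and 565 on the KO arrays and 1283, 1216 and 1283 on the WT arrays. The groups did not overlap, with a difference of -1.06 ± 0.24 and an adjusted p of 0.18. It passed without background correction (adjusted p = 0.0455), with a trended and robust prior (adjusted p = 0.0499) and in the fit over 18 arrays (adjusted p = 0.0444). In MEFs it read 748, 873 and 1096 on the KO arrays and 937, 453.5 and 656 on the WT arrays. Unlike those of Acat2, these groups overlapped, through WT 1. Lss differed there by 0.74 ± 0.32 (adjusted p = 0.509) and Cyp51, the lanosterol demethylase, by 0.57 ± 0.22 (adjusted p = 0.449). Nsdhl differed by 0.21 ± 0.64 in liver and -0.37 ± 0.15 in adipose tissue (adjusted p = 0.895 and 0.384).

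The genes of sterol sensing named here differed by 0.09 or less in size. Of this list, Mbtps2, a protease that cleaves SREBP, differed by -0.01 ± 0.03 in MEFs. Rnf139, a ubiquitin ligase of the endoplasmic reticulum, differed by 0.01 ± 0.04, 0.09 ± 0.07 and 0.00054 ± 0.03 in MEFs, liver and adipose tissue. Their adjusted p-values ran from 0.567 to 0.997. The gene called higher was Nus1, a subunit of the enzyme that makes dolichol precursors. It read 1544, 1433 and 1067 on the KO adipose arrays and 740.3, 976 and 846 on the WT adipose arrays. The difference was 0.63 ± 0.06 (adjusted p = 0.028), and it was above 0 but no longer called in 12 of 15 alternatives (adjusted p up to 0.178). No gene was called in the lists of sterol uptake and transport, of sterol efflux or of ketone body enzymes.

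Levels of the members were also compared between the WT tissues. These comparisons used the 18 arrays normalized together, and tissue goes with slide, so a slide effect cannot be told apart from the tissue. They called 54.5% of 19948 probes in adipose tissue against liver, 53.9% in MEFs against liver and 56.7% in adipose tissue against MEFs. Against that background, 3 of the 7 members were called in adipose tissue against liver, 2 in MEFs against liver and 4 in adipose tissue against MEFs. The arrays of adipose tissue were brighter as a whole, with raw medians of 180 to 203 in place of 107 to 123 on the liver and MEF arrays, so raw values do not compare across tissues.

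Acat2 was higher in WT adipose tissue than in WT liver by 2.82 ± 0.29 on the log2 scale (SE, n = 3 each, adjusted p = 1.99e-06) and than in WT MEFs by 2.40 ± 0.29 (adjusted p = 8.12e-06). MEFs and liver did not differ beyond their spread (0.42 ± 0.29, adjusted p = 0.257). For Stard4 the place of adipose tissue was the other way, while MEFs and liver did not differ beyond their spread (0.47 ± 0.28, adjusted p = 0.179). Stard4 was lower in WT adipose tissue than in WT liver (-2.18 ± 0.28, adjusted p = 1.65e-05) and than in WT MEFs (-2.65 ± 0.28, adjusted p = 1.95e-06). Idi1 was lower in adipose tissue too, with differences of -0.75 ± 0.19 against liver and -0.49 ± 0.19 against MEFs (adjusted p = 0.00418 and 0.0403), and the call against MEFs was lost with median centring (adjusted p = 0.0862), without the filter (adjusted p = 0.0779), with the replicate block for the MEF arrays (adjusted p = 0.0503) and when any 1 of 7 arrays was left out (MEF WT 1 or 3, adipose WT 1, 2 or 4, or adipose KO 2 or 3, adjusted p 0.0501 to 0.14). With the background set from the median and median absolute deviation these 2 differences were -2.47 and -2.03, both called.

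Fdps was higher in WT MEFs than in WT liver by 1.58 ± 0.46 (adjusted p = 0.00945), and this call was lost without liver WT 2 (1.24, adjusted p = 0.0503). Adipose tissue lay between, 0.92 ± 0.46 against liver and -0.66 ± 0.46 against MEFs (adjusted p = 0.107 and 0.245). The difference from liver was called without background correction (adjusted p = 0.0462) and without liver KO 1 (adjusted p = 0.0225). Srebf2 was higher in WT MEFs than in WT liver by 0.59 ± 0.13 (adjusted p = 0.00129) and lower in WT adipose tissue than in WT MEFs (difference -0.77 ± 0.13, adjusted p = 0.000148), while adipose tissue and liver did not differ beyond their spread (-0.18 ± 0.13, adjusted p = 0.259, and 0.04 with median centring). Without liver KO 2 this Srebf2 difference between adipose tissue and liver was called (adjusted p = 0.0494). The dimmer Srebf2 probe differed by -0.20 ± 0.08 between adipose tissue and MEFs (adjusted p = 0.0418). It was detected on no WT liver array, so no difference from liver is given for it. In the main fit the levels of Hmgcs1 and Insig1 were called in none of the 3 comparisons. Hmgcs1 differed by 0.87 ± 0.40 between MEFs and liver (adjusted p = 0.0876). This was called without background correction (adjusted p = 0.039) and without adipose KO 5 (adjusted p = 0.0396). Insig1 differed by 0.50 ± 0.28 between adipose tissue and MEFs (adjusted p = 0.144). It was called without background correction (adjusted p = 0.0325) and with the background set from the median and median absolute deviation (adjusted p = 0.0285). The same call was made with median centring (adjusted p = 0.035) and without adipose KO 5 (adjusted p = 0.0335). With median centring Insig1 was also called in adipose tissue against liver (adjusted p = 0.0269). The second Insig1 probe differed by 0.34 ± 0.15 between adipose tissue and liver (adjusted p = 0.0656) and by 0.08 ± 0.15 between MEFs and liver (adjusted p = 0.704). Between adipose tissue and MEFs it differed by 0.26 ± 0.15 (adjusted p = 0.146). The Mvk probe was detected on no liver array, so no difference from liver is given. Between adipose tissue and MEFs it differed by -0.04 ± 0.03 (adjusted p = 0.28).

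**Figure D5:**
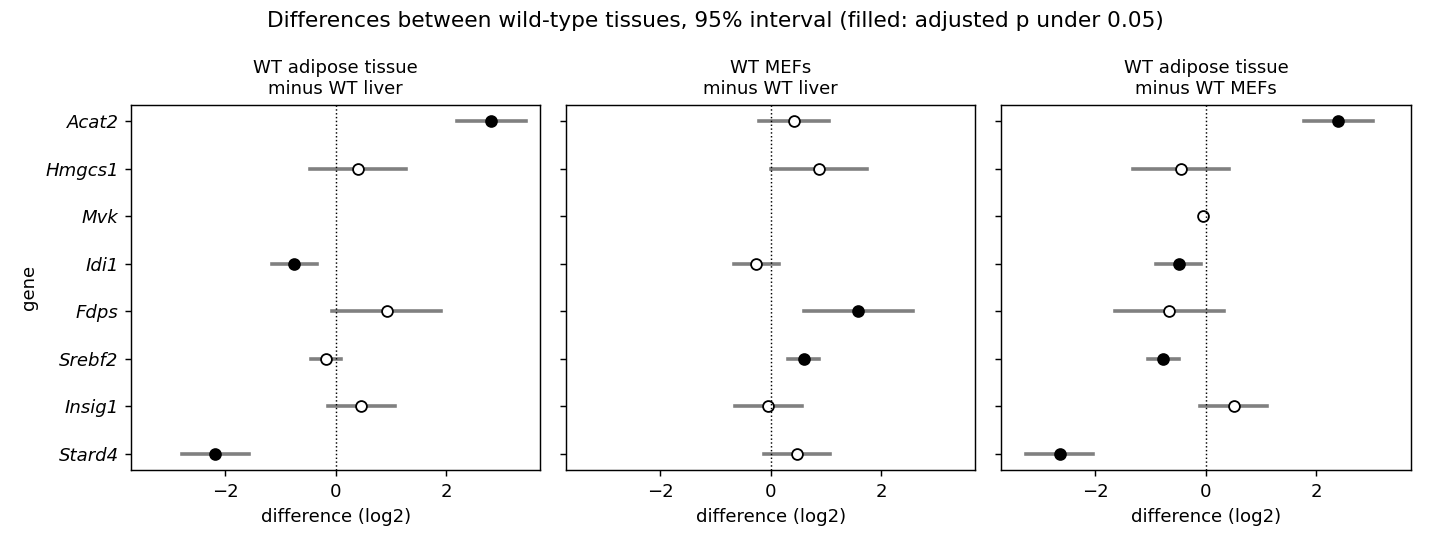
Difference between WT tissues (log2, point) with its 95% confidence interval (bar) for each gene, filled where the adjusted p is under 0.05, with Mvk left out against liver, where it was not detected. Acat2 is higher in adipose tissue than in liver by 2.82 and Stard4 is lower, at -2.18.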

How the data were processed

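RNA from MEFs, liver and adipose tissue was measured on 18 bead arrays, 3 per tissue and genotype, grouped by the genotype and tissue in the labels. The deposited scanner tables hold a raw bead intensity, a bead SD, a bead count and a detection p-value for each of 45992 probes. A second deposited table holds the authors' normalized intensities, which were put on the log2 scale here and used as an alternative. The scanner tables were written by BeadStudio 1.5.1.3, per the file headers, and lumi, RMA, affy and limma are named in the submitters' processing notes with no versions or order.

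The files pair no probe with a gene. The number in a probe name, where it begins with 1 or 2 zeros, was read as a gene ID, which matched a mouse gene for 82.6% of 11868 such numbers, against 41.1% to 46.2% for the same numbers shifted by up to 7. After leaving out 77 control probes, 9807 probes had a name. The name of a probe is therefore an inference, which no probe sequence was used to check.

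Intensities were background-corrected (normexp, negative controls inferred through detection p-values, offset 16), quantile-normalized over the 6 arrays of a tissue and put on the log2 scale in limma 3.58.1 (R 4.3.3). The fitted background SD was 112 to 507 raw units, against a median absolute deviation of 11.7 to 23.0. Probes with a detection p-value under 0.05 on at least 3 arrays were fitted with lmFit and eBayes and adjusted by Benjamini-Hochberg over all of them. Tests are two-sided. Comparisons of tissues, and of knockout effects between tissues, used 1 fit over 18 arrays normalized together, with probes detected on at least 3 of 18. Log2 levels of a gene are those of its brightest probe, other probes are given beside it, and no probe's level was set against another's. The fit was also run on simulated data with independent noise for each probe on each array. Those data held no background, normalization, slide or shared array effect, so that run cannot speak to these. The number of arrays limits the precision.

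Arrays of the same replicate number deviated together in MEFs (r = 0.10, 0.23 and 0.24 between the deviations from the group means), so the number was taken to pair them, from the data and not from the labels. The main tests in MEFs left this pairing out. It entered only the alternatives with the replicate number as a block. In liver r was 0.23, 0.23 and -0.10, and they were not taken as pairs. The genes, the lists of related genes and the marker lists were chosen with earlier results of these data known. Named with values are all members, the called genes of each list, the 2 genes with the largest differences per tissue in the lists of mevalonate, squalene-to-cholesterol and sterol-sensing genes, and the 5 genes most like the members. A few genes that this rule names are not reported here. Alternatives were 3 other ways to correct the background or normalize, the authors' values, other filters, a trended and robust prior, blocks for replicate, slide or slide section, and leaving out each array.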

Additional observations from a re-analysis of the deposited data

Results flagged for a closer look

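The knockout effect on Acat2 differed between adipose tissue and MEFs. The effect in adipose tissue minus that in MEFs was -1.88 ± 0.41 on the log2 scale in the limma fit over 18 arrays (adjusted p = 0.0297). The effect of KO minus WT was -1.04 in adipose tissue, where all 3 KO arrays were below all 3 WT arrays, and 0.81 in MEFs, where all 3 KO arrays were above all 3 WT arrays. Neither effect passed the test within its own tissue. The call on the difference was lost without the filter on dim probes (adjusted p = 0.0611) and when any 1 of 7 arrays was left out (adjusted p 0.0527 to 0.0768).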

How the results depend on the processing

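Of 434 values of the members' knockout effects under alternatives, 1 was called (Stard4 in liver without KO 1) and 28 had the opposite sign. The members' median in MEFs stayed between 0.32 and 0.43 over the settings. In liver, Fdps was 0.079 with median centring, 0.092 with slide as a block and 0.093 on the 5 arrays of 1 slide, and Insig1 was 0.090, 0.024 and 0.025 in the same settings. In adipose tissue, Srebf2 was 0.032 with median centring, and the dimmer Insig1 probe was -0.032 without background correction, -0.060 with the background from the median and median absolute deviation and -0.071 on the authors' values. There Rnf139 was -0.0095 with that background, -0.0069 on the authors' values, -0.00019 in the fit over 18 arrays and -0.0039 with slide section as a block. Between WT tissues, median centring gave 0.038 for Srebf2 (adipose tissue against liver), 0.043 for Insig1 (MEFs against liver) and 0.0024 for Mvk (adipose tissue against MEFs). The cause was not tested.

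Leaving out 1 array gave knockout effects in MEFs of -0.062 to 0.18 for Idi1, -0.0080 to 0.21 for the dimmer Srebf2 probe, -0.072 to 0.36 for Stard4, -0.026 to 0.0051 for Mbtps2 and -0.028 to 0.028 for Rnf139. In liver it gave -0.12 to 0.25 for Acat2, -0.37 to 0.0094 for Idi1, -0.62 to 0.59 for Fdps, -0.093 to 0.20 for Srebf2, -0.071 to 0.087 for Insig1 and -0.33 to 0.82 for Nsdhl. In adipose tissue it gave -0.69 to 0.068 for Hmgcs1, -0.058 to 0.051 for Srebf2, -0.016 to 0.039 for its dimmer probe, -0.15 to 0.56 for Insig1, -0.21 to 0.15 for its dimmer probe and -0.014 to 0.0091 for Rnf139. Insig1 in WT MEFs against WT liver ran from -0.12 to 0.0027.

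The number of probes called depended on the setting. In MEFs it was 63, and 249 without background correction, 165 with the background from the median and median absolute deviation, 20 with median centring, 36 without the filter, 238 with a trended and robust prior, 428 in the fit over 18 arrays and 13 with the replicate block. In liver it was 597, and 372 on the authors' values, 358 without the filter, 1344 in the fit over 18 arrays, 259 with the replicate block, 292 with slide as a block and 288 on the 5 arrays of 1 slide. In adipose tissue it was 65, and in the order of the MEF settings 275, 210, 43, 31, 250 and 991, with 160 on the authors' values and 31 with slide section as a block. The count for liver minus MEFs was 493 without background correction and 353 with the background from the median and median absolute deviation, with which it was 279 for adipose tissue minus MEFs and 478 for adipose tissue minus liver.

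Leaving out 1 array gave 17 to 62 called probes in MEFs, 60 to 1054 in liver and 15 to 94 in adipose tissue, 482 to 1099 for liver minus MEFs (lowest without MEF KO 2) and 337 to 1000 for adipose tissue minus MEFs (highest without adipose KO 5). The MEF count moved by over 1.5 times without each array but WT 1, the adipose count without each but KO 5, and the liver count without each array. The replicate block called no named gene in MEFs or liver, where none was called without it. In the fit over 18 arrays the block for the MEF arrays, chosen after seeing the data, changed the call of 1 member, Idi1 in adipose tissue against MEFs (adjusted p = 0.0503). No paired analysis was possible in adipose tissue because its groups share fewer than 2 replicate numbers. Dim probes such as those of Idi1 and Mvk lie near the background.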
